A study of Mus musculus with 5 samples.

Results

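Otx1, Otx2, En1, En2, Gbx1, Gbx2, Emx1, Emx2, Barhl1 and Barhl2 form 5 pairs of paralogous homeobox genes that pattern the vertebrate brain. Peaks were taken over the body of each gene and 2 kb on either side, a stretch called the gene region here, and these 10 genes were followed among 21631 protein-coding genes. The study compared DDX5-/- and wild-type (WT) mouse embryonic stem cells of the line MPI-II by chromatin immunoprecipitation and sequencing (ChIP-seq). DDX5 is a DEAD-box RNA helicase, and it was knocked out by nicking exon 2 of Ddx5 at paired guide sites, followed by expansion of a monoclonal line, so the knockout genotype stands on 1 clone. Both genotypes were grown on feeder cells with serum, LIF and inhibitors of MEK and GSK3. The groups were H2AK119ub in DDX5-/- cells, H2AK119ub in WT cells and RYBP in WT cells, profiled with an antibody to RYBP under its alias DEDAF. With 1 library per group, differences could not be checked against replicates, and p-values are left out. The input library of each genotype was not analysed here. The deposited peak lists held positions without heights, and the depth of each library is unknown.

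H2AK119ub is the ubiquitin mark that Polycomb repressive complex 1 (PRC1) places on histone H2A. RYBP is a subunit of the variant forms of PRC1, which in embryonic stem cells bind CpG-rich gene starts, and genes for developmental regulators carry broad domains of the mark while they await a lineage signal. In the embryo Otx2 in the forebrain and midbrain and Gbx2 in the anterior hindbrain meet at the border where the midbrain-hindbrain organiser forms. Otx1 acts with Otx2 in the rostral brain. En1 and En2 act on both sides of that border and are needed for the midbrain and cerebellum, Emx1 and Emx2 pattern the cerebral cortex, and Barhl1 and Barhl2 act in neuron subtypes of the brain, retina, inner ear and spinal cord. Gbx1 acts in spinal cord and basal forebrain neurons. Otx2 also acts in pluripotent cells themselves, in the passage from the naive to the primed state.

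Across the libraries, the DDX5-/- H2AK119ub list held 20994 peaks over 30.6 Mb, the WT list 24235 peaks over 45.9 Mb and the RYBP list 9564 peaks over 17.2 Mb. A shallower or less enriched library gives fewer and narrower peaks, and this cannot be told apart from an effect of the genotype. Covered length was lower in DDX5-/- cells on every chromosome except 6, where the ratio of DDX5-/- to WT was 1.36. Of 7 marker genes of embryonic stem cells, H2AK119ub marked only Esrrb in each genotype, Pou5f1, Nanog and Sox2 had no peak in any library, and 2 of the 7 had RYBP. Of 7 genes of fibroblasts, a usual feeder cell type, 4 were marked in each genotype and 3 had RYBP. Among all protein-coding genes, 23.6% were marked in DDX5-/- cells and 27.9% in WT cells, and 37.6% had RYBP. The targeted gene Ddx5 had no H2AK119ub peak in either genotype, and peaks do not show whether its product was lost.

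Windows of 300 bases at annotated starts, from 250 bases before to 50 after, were found in the RefSeq promoter table (GRCm38.p6, the coordinates of mm10) for 7 of the 10 genes, 11 windows in all. They are shown 5′ to 3′ for some of these starts, picked as examples, with each CpG dinucleotide in capitals, because variant PRC1 is known for CpG-rich DNA. The window of En1 lay inside peaks of all 3 libraries, chr1:120602237-120602536, plus strand.
En1: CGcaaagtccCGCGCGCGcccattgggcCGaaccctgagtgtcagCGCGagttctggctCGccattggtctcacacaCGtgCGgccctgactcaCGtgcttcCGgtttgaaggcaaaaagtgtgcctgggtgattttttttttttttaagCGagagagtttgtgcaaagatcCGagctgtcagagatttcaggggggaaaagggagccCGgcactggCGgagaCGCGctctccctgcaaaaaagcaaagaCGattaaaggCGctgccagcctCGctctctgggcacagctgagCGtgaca
The window of Barhl2, chr5:106458117-106458416 on the minus strand, was the most CpG-rich of the 11, and peak edges of both genotypes fell inside it.
Barhl2: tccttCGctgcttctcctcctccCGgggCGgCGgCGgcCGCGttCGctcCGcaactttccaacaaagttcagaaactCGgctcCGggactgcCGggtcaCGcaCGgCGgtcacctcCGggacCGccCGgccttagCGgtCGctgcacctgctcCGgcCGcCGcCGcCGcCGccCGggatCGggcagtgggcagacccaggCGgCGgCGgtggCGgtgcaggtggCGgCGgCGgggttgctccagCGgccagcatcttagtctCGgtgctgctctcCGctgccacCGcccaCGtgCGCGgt
The window of Gbx2, chr1:89931127-89931426 on the minus strand, was covered in full by WT H2AK119ub and RYBP.
Gbx2: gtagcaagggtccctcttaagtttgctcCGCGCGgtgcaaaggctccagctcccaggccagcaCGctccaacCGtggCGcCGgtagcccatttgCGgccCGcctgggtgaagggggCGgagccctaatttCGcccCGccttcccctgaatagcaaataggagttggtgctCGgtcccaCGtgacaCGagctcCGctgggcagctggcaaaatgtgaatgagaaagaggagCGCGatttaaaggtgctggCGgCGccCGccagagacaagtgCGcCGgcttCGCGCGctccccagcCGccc
The window of Emx2, chr19:59458440-59458739 on the plus strand, was covered in full by DDX5-/- H2AK119ub and RYBP and lay mostly in a gap of WT H2AK119ub.
Emx2: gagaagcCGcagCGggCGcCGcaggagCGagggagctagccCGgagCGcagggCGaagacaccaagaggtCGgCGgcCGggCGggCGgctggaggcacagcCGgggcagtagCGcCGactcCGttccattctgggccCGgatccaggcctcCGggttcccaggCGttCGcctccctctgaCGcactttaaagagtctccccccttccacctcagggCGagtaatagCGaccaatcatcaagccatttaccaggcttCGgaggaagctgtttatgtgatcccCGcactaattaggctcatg
Otx2 had 4 annotated starts. The outermost, chr14:48667595-48667894 on the minus strand, was covered by WT H2AK119ub alone.
Otx2 start 1: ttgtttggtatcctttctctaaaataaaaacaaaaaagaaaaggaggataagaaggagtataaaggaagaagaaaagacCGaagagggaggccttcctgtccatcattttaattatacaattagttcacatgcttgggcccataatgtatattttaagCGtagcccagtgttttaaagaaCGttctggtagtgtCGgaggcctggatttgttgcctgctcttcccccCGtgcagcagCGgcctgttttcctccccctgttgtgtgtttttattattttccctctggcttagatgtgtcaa
The third, chr14:48665060-48665359 on the minus strand, lay in RYBP and almost wholly in WT H2AK119ub, with no DDX5-/- peak.
Otx2 start 3: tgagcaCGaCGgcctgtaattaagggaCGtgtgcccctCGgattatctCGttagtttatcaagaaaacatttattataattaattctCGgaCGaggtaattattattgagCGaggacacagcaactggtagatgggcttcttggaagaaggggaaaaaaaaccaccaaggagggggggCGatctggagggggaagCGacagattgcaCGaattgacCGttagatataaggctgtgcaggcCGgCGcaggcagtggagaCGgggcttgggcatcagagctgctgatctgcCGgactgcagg

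The first question was whether the 10 genes carried the mark in each genotype. All 10 had H2AK119ub in DDX5-/- cells, against 23.6% of protein-coding genes, and all 10 in WT cells, against 27.9%. RYBP lay at all 10 in WT cells, against 37.6% of protein-coding genes. Among genes whose regions were as long as the members' (7215 to 26423 bp), these shares were 24.5%, 31% and 34.9%. Of all genes marked in WT cells, 74.1% were also marked in DDX5-/- cells, against 10 of 10 members. Peaks of all 3 libraries were present at each of the 10, against 15.7% of protein-coding genes, and against 15.9% of those of like length. The median covered share of a region was 69.3% in DDX5-/- cells and 82.0% in WT cells. Among all genes with any peak it was 10.2% of the region for DDX5-/- H2AK119ub and 14.4% for WT H2AK119ub, and among those of like length 18.5% and 23.6%. At least 50% of the region was covered at 7 of the 10 in DDX5-/- cells, against 2.57% of protein-coding genes, and at 8 of the 10 in WT cells, against 4.54%. The members were chosen with earlier results of these libraries known, so these shares describe the members.

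**Figure D1:**
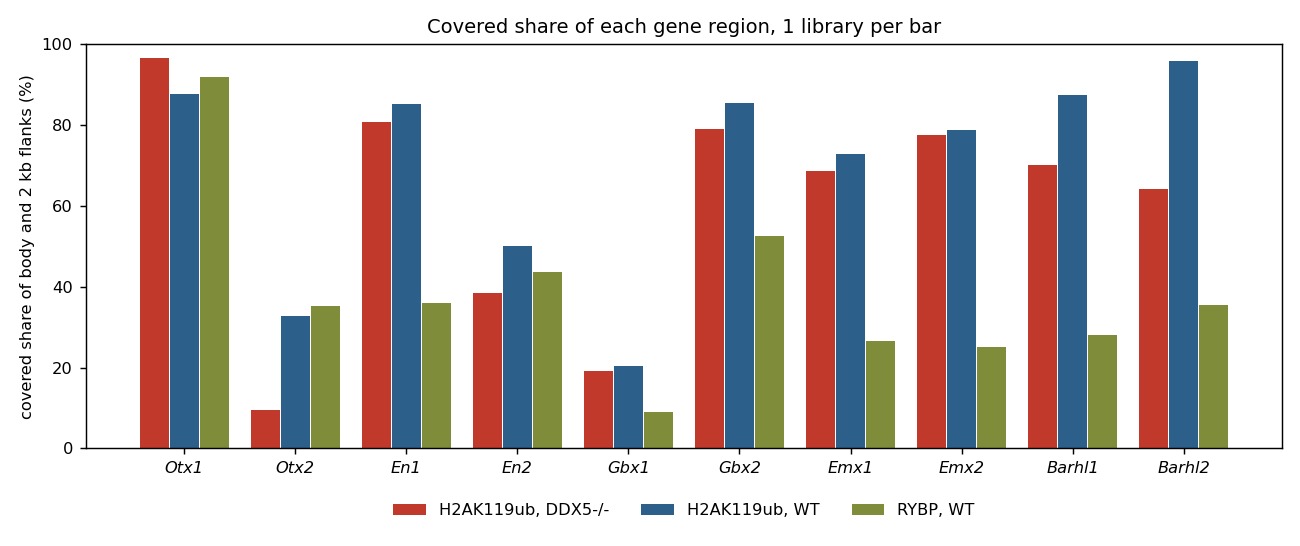
Share of each gene region (body and 2 kb flanks) covered by peaks, in percent, for H2AK119ub in DDX5-/- cells, H2AK119ub in WT cells and RYBP in WT cells, with 1 library per bar. H2AK119ub covered from 9.51% (Otx2) to 96.6% (Otx1) in DDX5-/- cells and from 20.3% (Gbx1) to 95.7% (Barhl2) in WT cells.

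Over the 10 regions together, H2AK119ub covered 72930 bp in DDX5-/- cells and 84393 bp in WT cells, a ratio of 0.86. The median ratio of the 10 genes was 0.93, against 0.56 (quartiles 0 and 0.88) for the 6025 protein-coding genes marked in WT cells. Among the 2424 genes with at least the lowest WT share of the members (20.3%) the median ratio was 0.65. Taking 1.5-fold as the limit for calling a difference, covered length was lower in DDX5-/- cells at 1 of the 10, Otx2, against 58.1% of the genes marked in WT cells and 51.7% of those with at least that WT share. It was higher past the limit at 0 of the 10, against 4.78% and 1.20%. Of the WT bases, 81.2% were also covered in DDX5-/- cells, against 49.2% over all protein-coding regions and 55.7% over regions with at least that WT share. The ratio was above that of the gene's own chromosome at 8 of the 10, and Otx2 and Emx1 lay below theirs. A chromosome's ratio takes in all of its peaks, and the share of all genes above their chromosome was not counted.

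**Figure D2:**
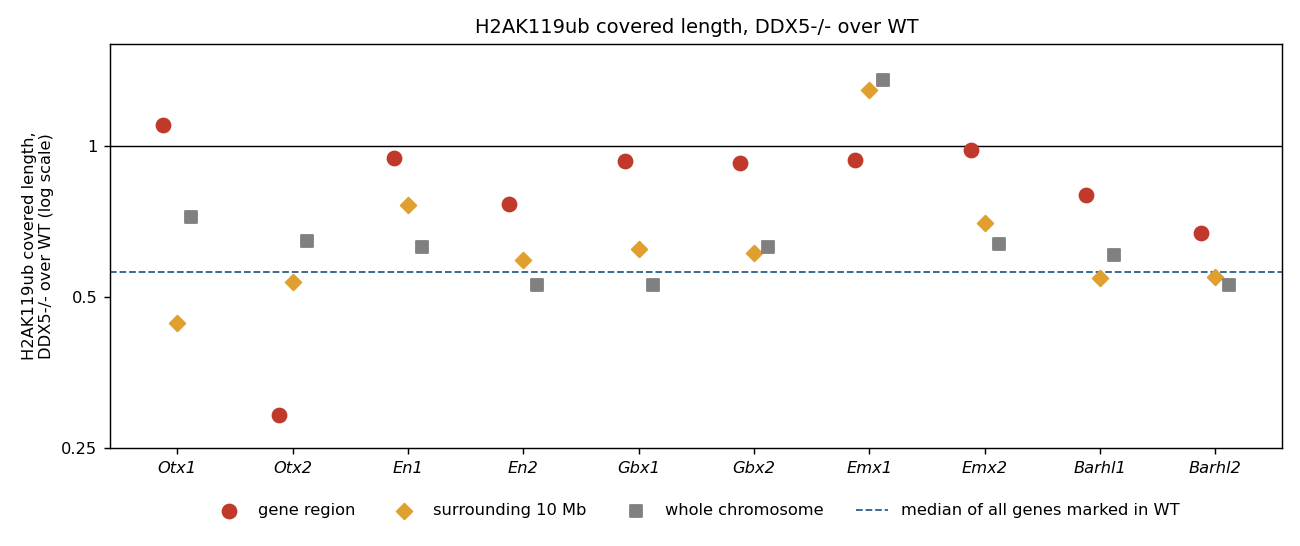
Ratio of H2AK119ub covered length, DDX5-/- over WT (log scale), for each gene region (circles), the 10 Mb around the gene without its own region (diamonds) and its whole chromosome (squares), with the median of all genes marked in WT cells as a dashed line. The gene regions lie between 0.77 and 1.10 except for Barhl2 at 0.67 and Otx2 at 0.29, and Emx1 is the gene whose chromosome lies above 1.

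The paralogs Otx1 and Otx2 stood at opposite ends of the family. Otx1 (gene ID 18423, chromosome 11, 21994764 to 22001651) had 10519 bp of H2AK119ub in DDX5-/- cells, against 9540 bp in WT cells, which is 96.6% and 87.6% of its region. All of the WT bases were covered in DDX5-/- cells, and 979 bp were covered in DDX5-/- cells alone. The main peak was 8986 bp wide in DDX5-/- cells, from 21992565 to 22001550, and 8049 bp wide in WT cells, from 21993310 to 22001358. RYBP covered 10012 bp of the region, 92.0%, the highest RYBP share of the 10, mostly in a peak of 7969 bp that was wider than 99.9% of RYBP peaks. The ratio of H2AK119ub covered length at Otx1 was 1.10, the only one above 1, where the surrounding 10 Mb had 0.44, from 15.2 kb in DDX5-/- cells and 34.1 kb in WT cells. With flanks of 20 kb the ratio at Otx1 was 0.95. A predicted lncRNA gene, Gm32517, lies within the same region.

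Otx2 (gene ID 18424, chromosome 14, 48656781 to 48667644) had 1414 bp of H2AK119ub in DDX5-/- cells, against 4861 bp in WT cells, or 9.51% and 32.7% of its region. The DDX5-/- library had 1 peak there, from 48665955 to 48667368. The WT library had 3 peaks, and the DDX5-/- peak lay wholly inside the widest, a 3484-bp peak from 48665068 to 48668551. The other two WT peaks, of 805 and 1790 bp, overlapped no DDX5-/- peak, and the second of these also lies over an end of the lncRNA gene Otx2os1. The ratio at Otx2 was 0.29, the lowest of the 10, where chromosome 14 had 0.65 and the surrounding 10 Mb 0.54. Of the genes marked in WT cells, 32.7% had a lower ratio still. The surroundings were nearly bare, with 11.97 kb in DDX5-/- cells and 22.3 kb in WT cells over 10 Mb. RYBP at Otx2 was more extended than either H2AK119ub signal, at 5251 bp in 3 peaks, and 1 of these, 1442 bp wide beyond the lower-coordinate end of the gene, overlapped no H2AK119ub in either genotype. The remaining 2 RYBP peaks, of 2721 and 1554 bp, left a gap between them. That gap held the outermost start, 259 bp from the nearest RYBP, and the next start, 172 bp from it. None of the 4 starts lay in a DDX5-/- peak, at distances of 140 to 3221 bp, while 3 of the 4 lay inside WT H2AK119ub.

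**Figure D3:**
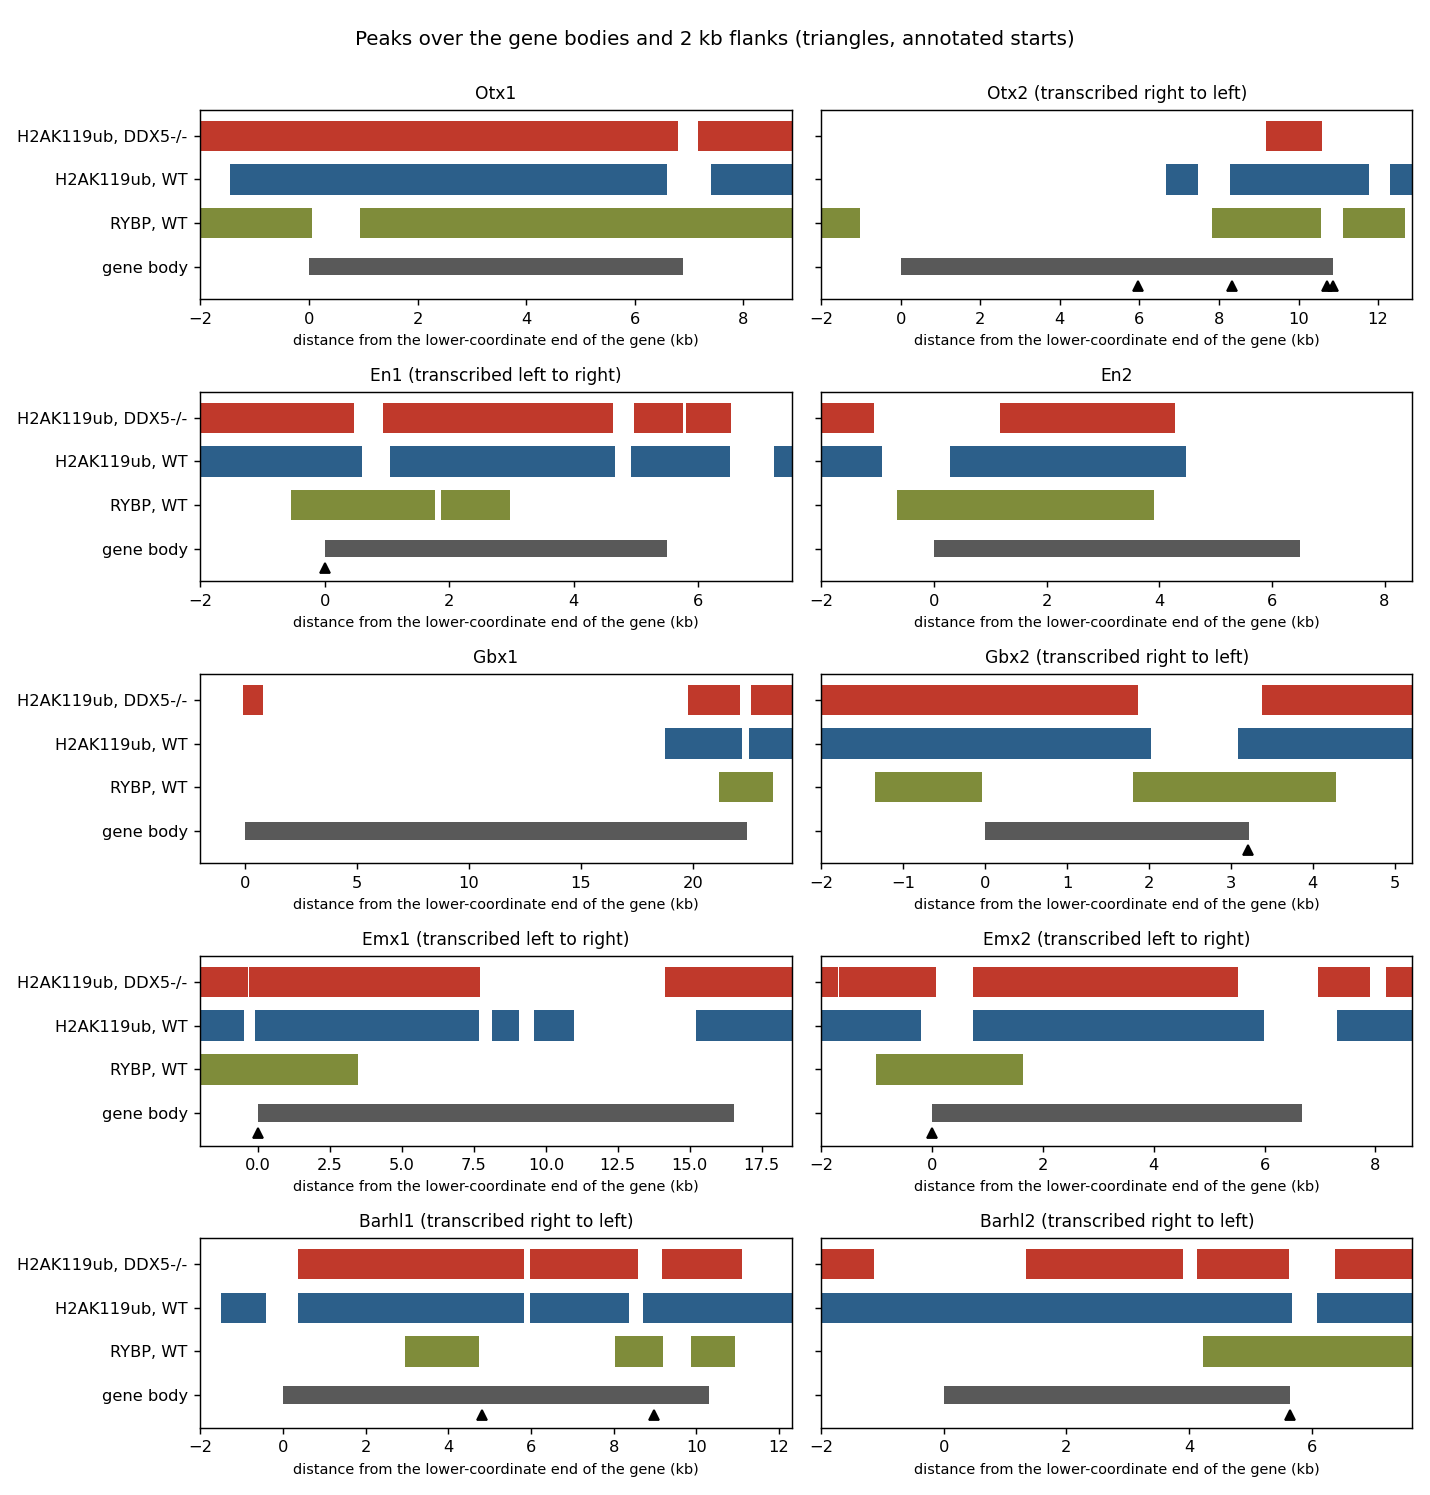
Peaks of the 3 libraries over each gene body and its 2 kb flanks, drawn by distance from the lower-coordinate end of the gene in kb, with the gene body in grey and triangles at annotated starts where the promoter table gives them. Otx1 is covered nearly end to end in every library, Otx2 has a single DDX5-/- peak of 1414 bp, and most of the Gbx1 body holds no peak.

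En1 and En2 encode the engrailed factors. En1 (gene ID 13798, chromosome 1, 120602487 to 120607991) had 7679 bp in DDX5-/- cells, against 8090 bp in WT cells, 80.8% and 85.1% of its region, a ratio of 0.95. Its mark ran on well upstream of the gene, in a peak 11013 bp wide in WT cells (120592076 to 120603088), of which DDX5-/- peaks covered 80.1% in 3 pieces. Joined across gaps of up to 2 kb, the domain through En1 spanned 17124 bp in DDX5-/- cells and 25779 bp in WT cells, and part of the difference lay over the predicted lncRNA gene Gm34352 downstream. With flanks of 20 kb the ratio at En1 was 0.76. RYBP covered 3423 bp of the region, in 2 peaks over the start and the first part of the body.

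En2 (gene ID 13799, chromosome 5, 28165696 to 28172190) had 4042 bp in DDX5-/- cells, against 5264 bp in WT cells, 38.5% and 50.2% of its region. The gene held 1 main peak in each genotype, 3108 bp wide in DDX5-/- cells and 4184 bp wide in WT cells, and the DDX5-/- peak lay wholly inside the WT one. A second peak about 1 kb wide lay in the flank on the lower-coordinate side in both. The RYBP peak, 4575 bp from 28165037 to 28169611, was wider than 98.9% of RYBP peaks and covered 1825 of the 2232 bp between the H2AK119ub peaks of DDX5-/- cells and 953 of the 1214 bp between those of WT cells. The ratio at En2 was 0.77, above the 0.53 of chromosome 5, which was the second lowest of all chromosomes.

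Gbx2, the hindbrain partner of Otx2, did not share the short coverage of Otx2 in DDX5-/- cells. Gbx2 (gene ID 14472, chromosome 1, 89927962 to 89931176) had 5694 bp in DDX5-/- cells, against 6154 bp in WT cells, 78.9% and 85.3% of its region, a ratio of 0.93. Its widest peak began far beyond the gene end, at 89923254 in DDX5-/- cells with 6572 bp and at 89918603 in WT cells with 11384 bp, and 90.4% of the WT peak was covered in DDX5-/- cells by 3 peaks. Every DDX5-/- base in the region was also covered in WT cells. A gap in H2AK119ub lay over the 5′ part of the gene in both genotypes, from 89929826 to 89931346 in DDX5-/- cells and from 89929987 to 89931047 in WT cells. It was filled by a RYBP peak of 2476 bp, from 89929773 to 89932248. The annotated start at 89931176 fell in the gap in DDX5-/- cells, 171 bp from the nearest peak, and inside a peak in WT cells. The upstream flank also holds part of a predicted protein-coding gene, LOC102637806.

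Gbx1 (gene ID 231044, chromosome 5, 24504426 to 24526848) is the longest of the 10 genes, and its mark was kept to its higher-coordinate end. H2AK119ub covered 5030 bp in DDX5-/- cells and 5375 bp in WT cells, 19.0% and 20.3% of the region, a ratio of 0.94. Peaks of 2304 and 1855 bp in DDX5-/- cells lay wholly inside peaks of 3451 and 3458 bp in WT cells, so 76.4% of the WT bases were covered in DDX5-/- cells. A further DDX5-/- peak of 921 bp, from 24504326 to 24505246, lay at the opposite end and overlapped neither WT H2AK119ub nor RYBP. It was the only one of the 29 DDX5-/- peaks over the 10 genes that overlapped no WT H2AK119ub. An overlap of 1 bp was enough, and the share over all DDX5-/- peaks was not counted. With peaks of at least 1 kb, which leave out the 921-bp peak, the ratio at Gbx1 was 0.76, and with flanks of 20 kb it was 0.67. RYBP had 1 peak of 2396 bp at the marked end.

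Emx1 lies on chromosome 6, whose H2AK119ub was longer in DDX5-/- cells. Emx1 (gene ID 13796, 85187931 to 85204463) had 14086 bp in DDX5-/- cells, against 14963 bp in WT cells, 68.6% and 72.9% of its region. Its ratio of 0.94 was below the 1.36 of chromosome 6 and the 1.30 of the surrounding 10 Mb, and with flanks of 20 kb the ratio was 1.05. The covered parts differed by position. Around the start, peaks of 1921 and 8013 bp in DDX5-/- cells enclosed peaks of 1673 and 7786 bp in WT cells, and all of the WT bases of both peaks were covered. Inside the gene, WT peaks of 966 and 1390 bp overlapped no DDX5-/- peak. Over the far end a peak of 5243 bp in DDX5-/- cells was offset from a peak of 5766 bp in WT cells, with 4141 bp in common. RYBP formed 1 peak of 5710 bp across the start, which was 99.4% covered by DDX5-/- H2AK119ub and 91.9% covered by WT H2AK119ub.

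Emx2 (gene ID 13797, chromosome 19, 59458690 to 59465357) had 8261 bp in DDX5-/- cells, against 8408 bp in WT cells, 77.4% and 78.8% of its region, a ratio of 0.98. DDX5-/- cells had 5 peaks and WT cells 3, and 90.9% of the WT bases were covered in DDX5-/- cells. A gap in H2AK119ub lay at the start in both genotypes. In DDX5-/- cells it ran from 59458765 to 59459432, downstream of the start, and in WT cells from 59458500 to 59459436, with the start inside it and 191 bp from the nearest peak. RYBP, 2666 bp from 59457671 to 59460336, spanned the gap. The antisense gene Emx2os lies 55 bp from the Emx2 start. It shares part of the RYBP peak and the H2AK119ub peaks upstream of the gap, but not those downstream of it. Depending on the flank or on how peaks were counted, the ratio at Emx2 lay between 0.87 and 1.43, on either side of 1.

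Barhl1 and Barhl2 differed in how their domains broke up. Barhl1 (gene ID 54422, chromosome 2, 28907680 to 28917984) had 10012 bp in DDX5-/- cells, against 12507 bp in WT cells, 70.0% and 87.4% of its region, a ratio of 0.80. The body was nearly alike, with peaks of 5460 and 2615 bp in DDX5-/- cells and 5453 and 2381 bp in WT cells. The difference lay outward of these: a peak at the upstream side was 1937 bp wide in DDX5-/- cells and 3722 bp in WT cells, and a WT peak of 1074 bp beyond the gene end overlapped no DDX5-/- peak. Within the gene body alone the ratio at Barhl1 was 0.98. RYBP formed 3 peaks of 1051 to 1813 bp.

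Barhl2 (gene ID 104382, chromosome 5, 106452523 to 106458166) had 6193 bp in DDX5-/- cells, against 9231 bp in WT cells, 64.2% and 95.7% of its region. The WT share was the highest of the 10. In WT cells 1 peak of 9298 bp, from 106448907 to 106458204, covered the whole body. In DDX5-/- cells 3 peaks covered 53.3% of that WT peak, and the 2 lying over the body were 2567 and 1497 bp wide. Joined across gaps of up to 2 kb, WT cells had 1 domain of 21321 bp. DDX5-/- cells had domains of 3679 and 7737 bp, split by a gap of 2474 bp, just over that limit. The ratio at Barhl2 was 0.67, just short of the 1.5-fold limit and above the 0.53 of chromosome 5. With flanks of 1 kb it was 0.60 and with peaks of at least 1 kb it was 0.58, both past the limit. RYBP, 4220 bp wide, lay over the start and upstream of it, where 90.4% of the neighbouring WT H2AK119ub peak of 2602 bp was also RYBP. The lncRNA gene Gm33151 lies in the same flank, within this RYBP peak.

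The second question was how RYBP lay relative to the mark at these genes. Of the 17 RYBP peaks over the 10 regions, 15 overlapped H2AK119ub in DDX5-/- cells and 16 overlapped it in WT cells. An overlap of 1 bp was enough, and the share over all RYBP peaks was not counted. Of the RYBP bases, 82.0% carried WT H2AK119ub, against 36.6% over all protein-coding regions and 75.5% over regions with at least the members' lowest WT share. Conversely RYBP covered 43.7% of the WT H2AK119ub bases of the 10 genes, against 17.6% over all protein-coding regions. It covered 23.6% over regions of like length and 17.4% over those with at least the members' lowest WT share. By gene the share ran from 20.6% at Emx2 to 90.8% at Otx1. That share was 68.8% at En2 and 67.9% at Otx2 and stayed below 50% at the other seven, whose H2AK119ub lay mostly outside the RYBP peaks.

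WT H2AK119ub bases with RYBP were more often covered in DDX5-/- cells than those without it, at 88.0% against 75.9% over the 10 genes. The same order held, with a wider gap, over all protein-coding regions, at 73.3% against 44.0%. Over regions with at least the members' lowest WT share it also held with a wider gap, at 79.3% against 50.7%. By gene the bases with RYBP had the higher share at 7 of the 10, among them Barhl2 (88.9% with RYBP and 56.6% without), Gbx1 (89.4% and 68.1%) and Otx2 (41.9% and 2.05%). The share of all genes with that order was not counted. At Otx1 all bases of both kinds were covered. The order was reversed at En2 (75.9% and 78.7%) and Gbx2 (83.1% and 100%). The nearest WT peak edge lay at a median of 986 bp from WT bases with RYBP and 1191 bp from those without it, pooled over the 10 genes, and the part of this position in the order was not tested.

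**Figure D4:**
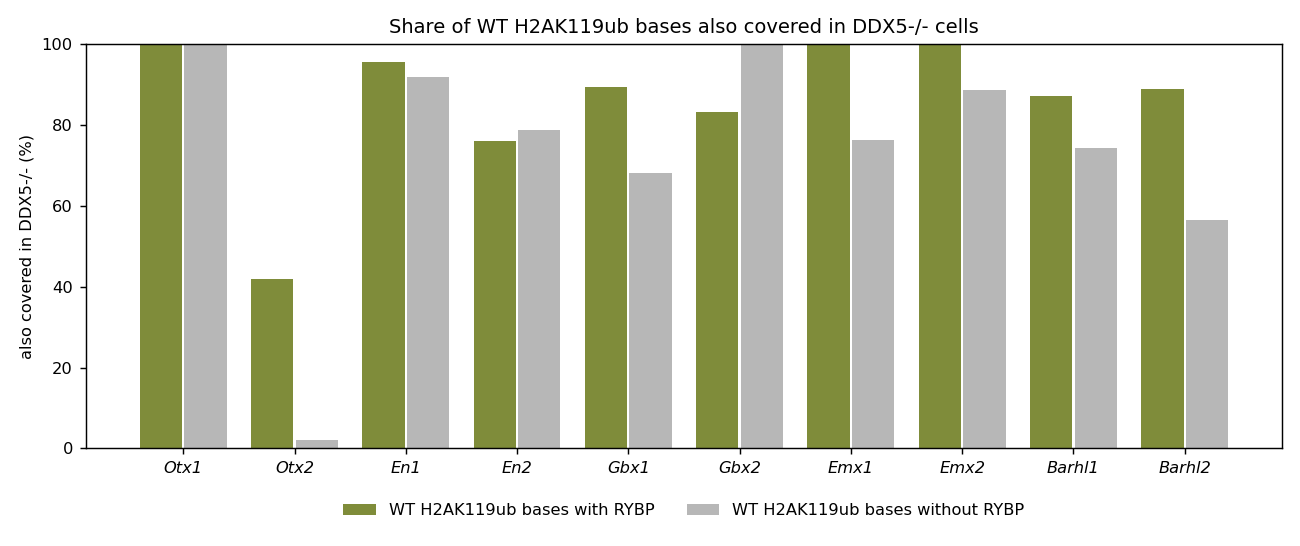
Share of WT H2AK119ub bases in each gene region that DDX5-/- H2AK119ub peaks also covered, in percent, for bases with RYBP and bases without RYBP in WT cells, with 1 library of each kind. Bases with RYBP have the higher share at 7 of 10 genes, Otx1 is at 100% for both, and En2 and Gbx2 have the opposite order.

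At the annotated starts, 7 of the 11 promoter windows overlapped H2AK119ub in DDX5-/- cells, 10 overlapped it in WT cells and 7 overlapped RYBP, against 7.28%, 9.52% and 21.9% of the 32851 windows in the table. The windows without DDX5-/- H2AK119ub were the 4 of Otx2, and every window of the other genes overlapped H2AK119ub in both genotypes. Peaks of all 3 libraries overlapped 6 of the 11, against 3.41%. Barhl2 had 42 CpG in its window, more than 97.0% of all windows, and Emx1 had 37, Gbx2 27, Emx2 26 and En1 23, where the median window had 7 and the upper quartile was 20. Each of these 5 windows lay in full inside RYBP. The 4 starts of Otx2, the first pair of which have windows that overlap each other, had 6, 8, 16 and 11 CpG, and of these only the window with 16 CpG overlapped RYBP. Barhl1 had 9 and 14 CpG at its starts, and RYBP covered 256 bp of the first window and none of the second. Over the whole table, windows with RYBP had a median of 24 CpG and those without it 5.

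**Figure D5:**
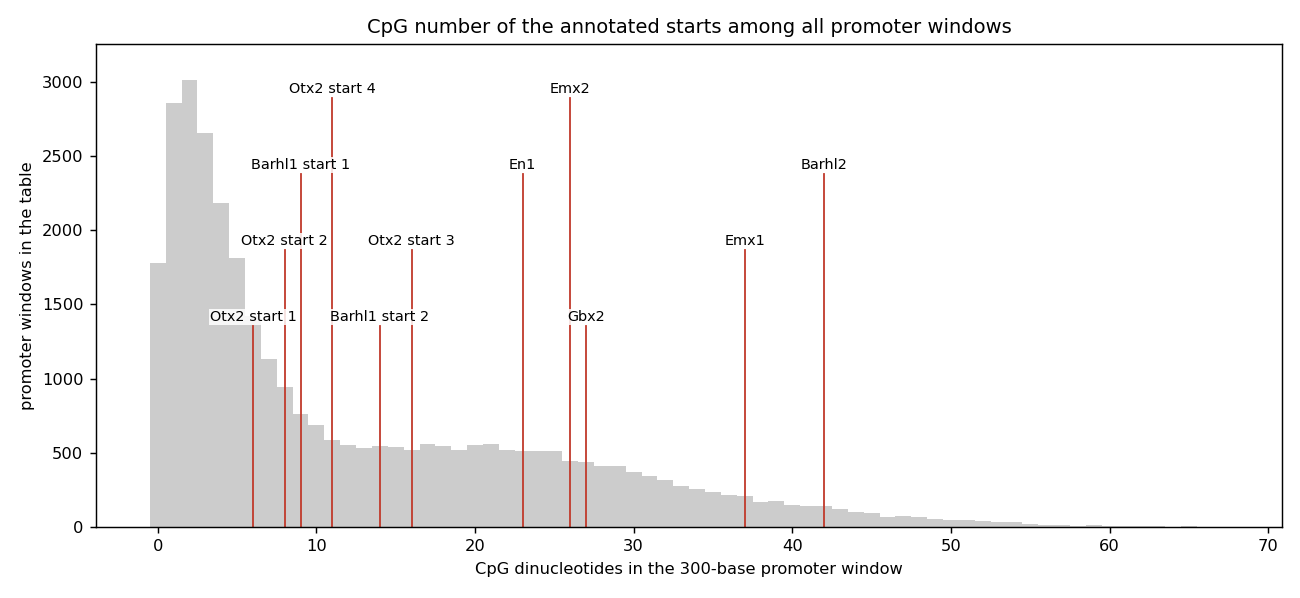
Number of CpG dinucleotides in 300-base promoter windows: grey bars count all 32851 windows of the table, and red lines mark the 11 windows of Otx2, En1, Gbx2, Emx1, Emx2, Barhl1 and Barhl2 (line height carries no value). En1, Emx2, Gbx2, Emx1 and Barhl2 lie above 20, and the Otx2 and Barhl1 starts lie at 16 or below.

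Genes that act with these factors in forebrain, midbrain and hindbrain patterning were listed for comparison, 46 in all. H2AK119ub marked 40 of them in DDX5-/- cells and 41 in WT cells, and RYBP was present at 41, against the 23.6%, 27.9% and 37.6% of protein-coding genes given above. The most WT base pairs lay at Lmx1b, a LIM homeobox factor of the organiser and dopamine neurons (58898 bp in DDX5-/- cells and 76122 bp in WT cells), Pax2, an early factor of the midbrain-hindbrain border (32974 and 43190 bp), and Pax5, its paralog (22065 and 31487 bp). Il17rd and Spry2, feedback inhibitors of FGF signalling, had no peak in any library. The median ratio of the 41 partner genes marked in WT cells was 0.88, against 0.93 for the 10 homeobox genes and 0.56 for all protein-coding genes marked in WT cells. Past 1.5-fold, 7 of the 41 were lower and 0 higher, against 58.1% and 4.78% of all protein-coding genes marked in WT cells. Among genes with at least the members' lowest WT share, 51.7% were lower and 1.2% higher, though some of the 41 fell below that share. The list was chosen with earlier results of these libraries known, so its counts and ratios describe the listed genes.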

How the data were processed

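H2AK119ub was profiled in DDX5-/- and WT cells and RYBP in WT cells, with 1 library each. Bowtie2 2.2.5, MACS 1.4 and the build mm10 are named in the submitters' processing notes, without their roles. Neither the peak threshold nor the control is given in the sources used here. The deposited lists, 1 for each library with no pooling, give chromosome, start and end per peak, and the deposited score is 0 for every peak, so no peak was ranked by height. Read depth is unknown.

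Gene positions came from RefSeq (GRCm38.p6), with chromosomes 1 to 19 and X. A gene was marked when at least 1 bp of a peak fell in its body or 2 kb flanks. Covered base pairs, shared base pairs and ratios of DDX5-/- to WT were computed with Python 3.11.15 and pandas 2.3.3, and the interval functions were tested on simulated data. Coordinates are counted from 1. All 10 members are named, as are partner genes that led in WT length or had no peak; 1 partner gene is not reported here. Members and lists were chosen with earlier results of these data known. The alternatives are flanks of 1, 5 and 20 kb or none, a 50% overlap, merging within 2 kb, peaks 1 kb or wider, the widest H2AK119ub peaks in equal number, and leaving out chromosome 6; that of 20 kb was chosen after seeing the data.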

Additional observations from a re-analysis of the deposited data

How the results depend on the processing

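The 10 genes stayed marked in both genotypes and with RYBP under every alternative run, except that leaving out chromosome 6 removed Emx1 and that the 50% overlap removed Gbx2 in WT cells, whose wide peaks lie mostly outside the region. The ratio over the 10 genes lay between 0.81 and 0.98 and the share of WT bases also covered in DDX5-/- cells between 68.8% and 83.0%. The ratio of 0.98 came with the 50% overlap, where Gbx2 kept its DDX5-/- peaks but no WT peak. The next highest ratio was 0.88, with the gene body alone. The share of WT bases with RYBP was 27.2% with flanks of 20 kb, against 43.7%; the cause was not tested. Past 1.5-fold lower, the count was 2 of the 10 with flanks of 1 kb, flanks of 5 kb, the 50% overlap, peaks of at least 1 kb and merged peaks, against 1 otherwise. The second gene was Barhl2 (0.60, 0.62, 0.53 and 0.58), or En2 (0.62) with merged peaks. Otx2 lay between 0.20 and 0.42 throughout. Ratios crossed 1 at Otx1 (0.95 with flanks of 20 kb), Emx1 (1.01 for peaks 1 kb or wider and 1.05 with flanks of 20 kb), Emx2 (1.43 with the 50% overlap, 1.02 with flanks of 1 kb and 1.00498 with flanks of 20 kb) and En1 (1.00135 with the 50% overlap). No paired analysis was possible because each group has 1 library. With depth unknown, the absence of a peak may be a matter of depth.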

Other observations

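Letters of homeodomain binding sites were counted in the 11 promoter windows as a description. TAATTA, which is its own reverse complement and is bound by many homeodomains, occurred in 4 of the 11 windows, at Otx2 start 1, Otx2 start 3, Emx2 and Barhl1 start 1, and in 5.29% of all windows. TAATCC, the form bound by Otx proteins, was searched on both strands and occurred in 2 of the 11, at Otx2 start 3 and Barhl1 start 2, and in 7.06% of all windows. No match of TAATTA overlapped one of TAATCC in these windows. Otx2 start 3 held 3 matches of TAATTA and 1 of TAATCC, the most of the 11, and was also the Otx2 window inside RYBP.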
